A study of Mus musculus with 12 samples.

Results

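Rpph1 is the RNA of nuclear ribonuclease P (RNase P) and Rmrp the RNA of ribonuclease MRP (RNase MRP), and both genes were described across 12 RNA-Seq libraries of mouse CD4 T-blast cells (TB). They were chosen by name, as 2 of the 24439 genes listed in each library, because earlier results of these data had shown that they take a large share of the summed expression values. Their levels and shares are therefore given as descriptions without a test. The mice were C57BL/6 animals of the line C42, which carry a 130-kb fragment of human DNA with the IL3 and CSF2 genes. CD4 T cells from spleen were transformed with 2 µg/ml concanavalin A for 40 h and grown in 50 U/ml IL-2, for 30 h by the methods and about 2 days by the labels. For the last 16 h the cells were kept with IL-2 (TB IL-2) or without it (TB IL-2nil). In the groups TB+ IL-2 and TB+ IL-2nil, 20 ng/ml PMA and 2 µM of the calcium ionophore A23187 (together PMA/I) were added for 2 h. Each of the 4 groups has 3 libraries, and the labels do not say whether they came from separate animals, so P-values measure the spread between these libraries.

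RNase P is an endonuclease that removes the 5′ leader of precursor tRNAs, and its RNA subunit carries the catalytic site. RNase MRP is built on a related RNA, shares nearly all of its proteins with RNase P, and acts in the processing of ribosomal RNA. Both RNAs are abundant in growing cells and are made by RNA polymerase III (Pol III) from promoters that lie upstream of the transcribed sequence.

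The RNAs and their flanks are shown because all values below rest on these 2 short loci. Rpph1 lies at chr14:51427124-51427442 on the minus strand of mm9 (319 bases, 67.1% GC), where GENCODE M1 lists a gene under the name AC027184.1. Rmrp lies at chr4:43505660-43505930 on the minus strand (271 bases, 64.2% GC), listed there as RNase_MRP. The RefSeq models have lengths of 325 and 275 bases, so ends can differ by a few bases. Capitals mark the octamer motif and the TATA motif upstream of Rpph1, and the runs of T downstream of each RNA.
Rpph1, 100 bases upstream, chr14:51427443-51427542: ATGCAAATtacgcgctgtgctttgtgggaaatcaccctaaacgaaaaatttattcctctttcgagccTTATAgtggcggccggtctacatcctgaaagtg
Rpph1 RNA, first 300 bases, chr14:51427143-51427442: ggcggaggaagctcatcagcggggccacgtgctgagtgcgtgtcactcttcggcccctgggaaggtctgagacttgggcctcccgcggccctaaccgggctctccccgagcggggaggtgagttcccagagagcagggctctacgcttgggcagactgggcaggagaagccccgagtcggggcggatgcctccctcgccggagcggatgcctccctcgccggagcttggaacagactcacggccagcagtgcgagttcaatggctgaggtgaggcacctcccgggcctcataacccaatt
Rpph1, 20 bases downstream, chr14:51427104-51427123: ctcTTTTTTgatcgagatcc
Rmrp, 100 bases upstream, chr4:43505931-43506030: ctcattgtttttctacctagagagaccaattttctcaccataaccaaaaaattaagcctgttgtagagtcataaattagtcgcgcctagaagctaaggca
Rmrp RNA: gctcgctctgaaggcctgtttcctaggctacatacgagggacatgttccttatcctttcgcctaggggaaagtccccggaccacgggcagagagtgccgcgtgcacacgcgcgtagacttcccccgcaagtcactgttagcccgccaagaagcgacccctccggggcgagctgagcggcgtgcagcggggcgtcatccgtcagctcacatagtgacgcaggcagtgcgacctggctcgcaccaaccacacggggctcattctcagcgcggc
Rmrp, 20 bases downstream, chr4:43505640-43505659: tacacTTTTatttatttatt

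The 100 bases upstream of each RNA were searched on both strands for TATAA and for the octamer ATTTGCAT, whose matches do not overlap. Upstream of Rpph1 the octamer starts 100 bases before the RNA, at the edge of the window, and TATAA starts 33 bases before it, both on the strand opposite to the RNA. Of 32851 mouse promoters of RefSeq, 10.2% hold TATAA and 0.645% the octamer in the 100 bases before their start. Neither run of letters is in the window of Rmrp. Runs of T, at which Pol III terminates, start 4 bases past the end of the Rpph1 RNA and 6 bases past that of Rmrp. Both loci have close neighbours on the opposite strand. Parp2, which encodes a poly(ADP-ribose) polymerase, starts 179 bases from the start of Rpph1 in GENCODE M1, and Ccdc107 overlaps 159 bases of Rmrp there. In RefSeq, whose models were used for counting, the promoter window of Ccdc107 (chr4:43505987-43506286) holds 0 bases of Rmrp. The kit marks strand, but whether reads were counted by strand is not given in the sources used here. Any reads from an overlap of Rmrp and Ccdc107 could therefore not be told apart, and whether the models used for counting overlap was not tested.

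The deposited values are FPKM, which divide fragments by transcript length, so a share of the FPKM sum is not a share of reads. The libraries differed in depth from 0.408 to 1.24 times the median library, as read from the steps between low values, and the number of reads is not given by them. The lowest depth was that of TB IL-2nil replicate 2, and the next lowest, 0.784, that of TB IL-2 replicate 2. The part of depth in the results was not tested. All 6 T cell markers, among them Cd3e and Cd4, were present in every library at 21.8 to 356 FPKM. The CD8 markers Cd8a and Cd8b1 together reached at most 12.1 FPKM, the 3 B cell markers together at most 7.31 FPKM and the 5 myeloid markers together at most 1.65 FPKM, with Lyz2 listed at 0 in 9 libraries. The B cell sum was 5.53 to 7.31 FPKM in TB IL-2nil and 0.809 to 3.36 FPKM in the other groups, and its part in the results was not tested. The values of 2 libraries went against their labels. Il2, which PMA/I induces, stood at 1368 FPKM in the library labelled TB IL-2nil replicate 3 and at 0.290 FPKM in that labelled TB+ IL-2 replicate 3. In the study's table of differentially expressed genes, each of the 12 columns matched 1 library in rank order over 1391 genes, and only these 2 columns matched the library of the other label. Both libraries were therefore placed as in that table, and the shares, differences and counts of calls are also given by label, and most of them without both libraries. Under the placement TB IL-2nil holds the library labelled TB+ IL-2 replicate 3, and TB+ IL-2 holds the library labelled TB IL-2nil replicate 3.

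Rpph1 had the highest FPKM of all genes in 10 of the 12 libraries and the second highest in the other two, while Rmrp was first in 1, second in 9 and below second in 2. In TB IL-2, Rpph1 stood at 15488, 22482 and 17066 FPKM in replicates 1 to 3. In TB IL-2nil it stood at 15301 and 30351 FPKM in replicates 1 and 2 and at 21933 FPKM in the placed library. These ranges overlap. In TB+ IL-2 it stood at 17498 and 29530 FPKM in replicates 1 and 2 and at 15627 FPKM in the placed library. In TB+ IL-2nil it stood at 59207, 29204 and 20189 FPKM. Replicate 1 of TB+ IL-2nil lay far above the next highest library, TB IL-2nil replicate 2, and the remaining ones overlapped between groups.

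Rmrp stood at 11150, 18033 and 13959 FPKM in TB IL-2. In TB IL-2nil it stood at 5907 and 12919 FPKM in replicates 1 and 2 and at 15533 FPKM in the placed library. The lowest FPKM of Rmrp was thus in TB IL-2nil replicate 1, where Rpph1 was also at its lowest. That library had the lowest FPKM sum as well, at 193815. As shares of that sum, Rmrp took 3.05%, its lowest, but Rpph1 took 7.89%, above its 4.48% to 5.48% in TB IL-2. In TB+ IL-2, Rmrp stood at 18232 and 11578 FPKM and, in the placed library, at 14276 FPKM. In TB+ IL-2nil it stood at 50821, 15754 and 14609 FPKM. In bulk samples, fewer cells that make an RNA and less of it per cell cannot be told apart. As for Rpph1, TB+ IL-2nil replicate 1 lay far above all others, and without it the group had a mean of 15182 FPKM in place of 27061 ± 20584 FPKM (SD, n = 3).

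By mean FPKM the order for Rpph1 was TB+ IL-2nil (36200.0 ± 20428), TB IL-2nil (22528 ± 7543), TB+ IL-2 (20885 ± 7545) and TB IL-2 (18345 ± 3668). For Rmrp it was TB+ IL-2nil, TB+ IL-2 (14695 ± 3346), TB IL-2 (14381 ± 3461) and TB IL-2nil (11453 ± 4978). No neighbours in either order differed beyond their spread. The 2 RNAs did not keep a fixed proportion. The ratio of Rpph1 to Rmrp ran from 0.960 in TB+ IL-2 replicate 1 to 2.59 in TB IL-2nil replicate 1. It was 1.29 ± 0.0899 in TB IL-2 and 2.12 ± 0.623 in TB IL-2nil (SD, n = 3), and the range in TB IL-2 (1.22 to 1.39) ended just below that in TB IL-2nil (1.41 to 2.59). By label this gap closed, since the library labelled TB IL-2nil replicate 3 had a ratio of 1.09. Over the 12 libraries the log2 FPKM values of Rpph1 and Rmrp had a Pearson correlation of 0.72, and of 0.29 over the 11 without TB+ IL-2nil replicate 1. The libraries of 1 group share their treatment and the values of 1 library share its depth, so this is a description.

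**Figure D1:**
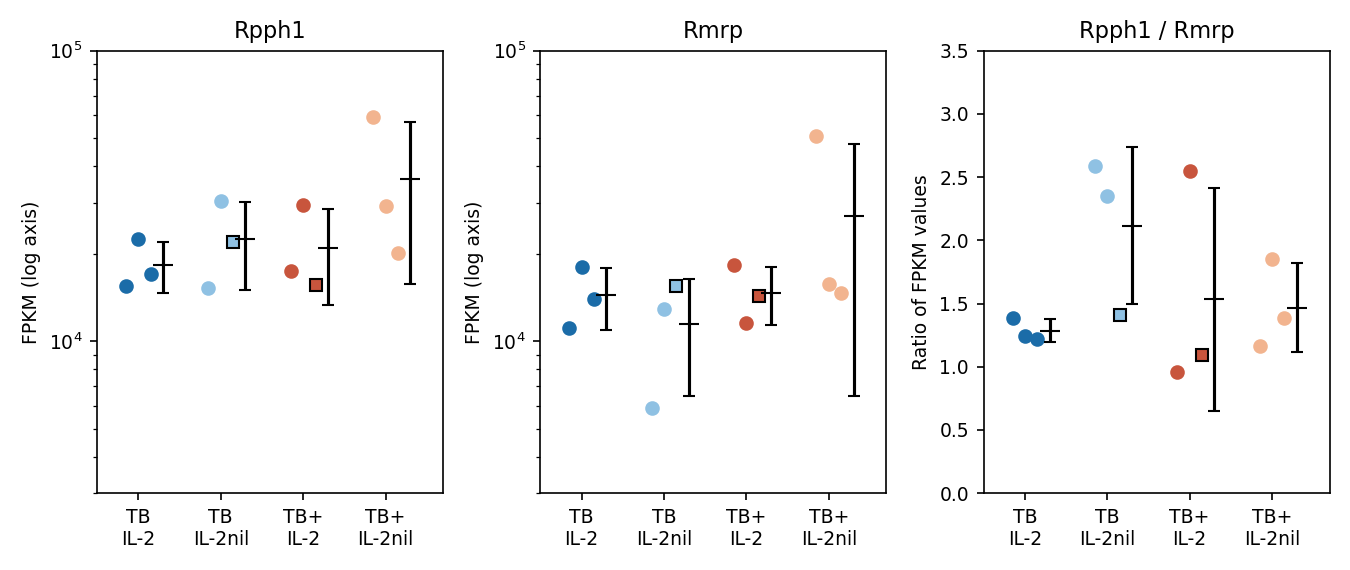
FPKM of Rpph1 and of Rmrp (log axes) and their ratio (linear axis) in the 12 libraries, by group, with the mean and SD of each group (n = 3) as bars beside the points. Squares with a black edge are the 2 libraries placed in the group of the other label. TB+ IL-2nil replicate 1 stands alone at 59207 FPKM of Rpph1 and 50821 FPKM of Rmrp, and the other libraries overlap between groups.

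As a share of all FPKM of a library, both RNAs together made up 9.42%, 9.64% and 8.14% in TB IL-2. In TB IL-2nil they made up 10.9% and 15.3% in replicates 1 and 2 and 13.3% in the placed library. Replicate 2, with the highest share of that group, had the lowest depth of all libraries. In TB+ IL-2 the shares were 11.8% and 11.8% and, in the placed library, 8.13%. In TB+ IL-2nil they were 30.6%, 14.6% and 12.3%. The group means were 9.06% ± 0.809 in TB IL-2, 13.2% ± 2.20 in TB IL-2nil, 10.6% ± 2.12 in TB+ IL-2 and 19.2% ± 9.99 in TB+ IL-2nil (SD, n = 3). By mean share both groups without IL-2 lay above both groups with it. Every library of TB IL-2nil lay above every library of TB IL-2, and every library of TB+ IL-2nil above every library of TB+ IL-2. The shares of TB IL-2nil, from 10.9%, overlapped those of TB+ IL-2, which reached 11.8%. Of the 12442 single genes kept for the comparisons, 20.3% had a lower share in TB IL-2 than in TB IL-2nil without overlap, and 4.80% in TB+ IL-2 than in TB+ IL-2nil. Between the last 2 groups the gap of the combined share was narrow, from 11.8% to 12.3%, and each RNA alone overlapped. Grouped by label, TB IL-2nil had 11.5% ± 3.63 and TB+ IL-2 had 12.3% ± 0.894 (SD, n = 3), and TB IL-2nil then overlapped TB IL-2. By label TB+ IL-2 reached 13.3% and also overlapped TB+ IL-2nil. Without both libraries the means of TB IL-2nil and TB+ IL-2 were 13.1% and 11.8% (n = 2). With the other short non-coding RNAs left out of the sum, the shares were 9.45% to 14.6% in TB IL-2 and 12.2% to 19.7% in TB IL-2nil, which overlap, and 9.52% to 14.0% in TB+ IL-2 and 15.5% to 39.6% in TB+ IL-2nil, which do not.

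Between TB IL-2 and TB IL-2nil most of the difference lay in Rpph1. Its share was 5.10% ± 0.544 in TB IL-2, 8.82% ± 1.68 in TB IL-2nil, 6.17% ± 2.13 in TB+ IL-2 and 11.04% ± 4.86 in TB+ IL-2nil (SD, n = 3). Rpph1 was the 1 RNA of the pair whose share did not overlap between TB IL-2 and TB IL-2nil, as for 20.3% of the genes kept. The share of Rmrp was 3.96% ± 0.314, 4.39% ± 1.25, 4.41% ± 1.43 and 8.15% ± 5.20 in the same order (SD, n = 3), and these ranges overlapped in each of the 4 comparisons. Without TB+ IL-2nil replicate 1 the mean share of Rmrp in that group was 5.14% and that of Rpph1 8.31%.

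Both RNAs were above 0 in every library. The other 1278 short non-coding RNA genes, many of them small nucleolar RNAs, took 7.20% to 34.2% of the FPKM sum together. Those with the next largest mean shares, Scarna10 (2.43%) and Snord49b (2.35%), were listed at 0 in some libraries and reached 8.01% and 6.97% in others. Short non-coding RNAs in all took 16.6% to 53.2%, with the highest value in TB+ IL-2nil replicate 1 and the second highest (43.8%) in TB IL-2 replicate 2. In the latter library the pair took 9.64% and the other short RNAs 34.2%. Of the mouse genes resembling Rpph1, Rprl1 and Rprl2 were listed at 0 in all 12 libraries, and Rprl3 was above 0 in 1 library, at 0.569 FPKM. The vault RNA Vaultrc5, another Pol III transcript, ran from 3.41 to 48.1 FPKM.

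**Figure D2:**
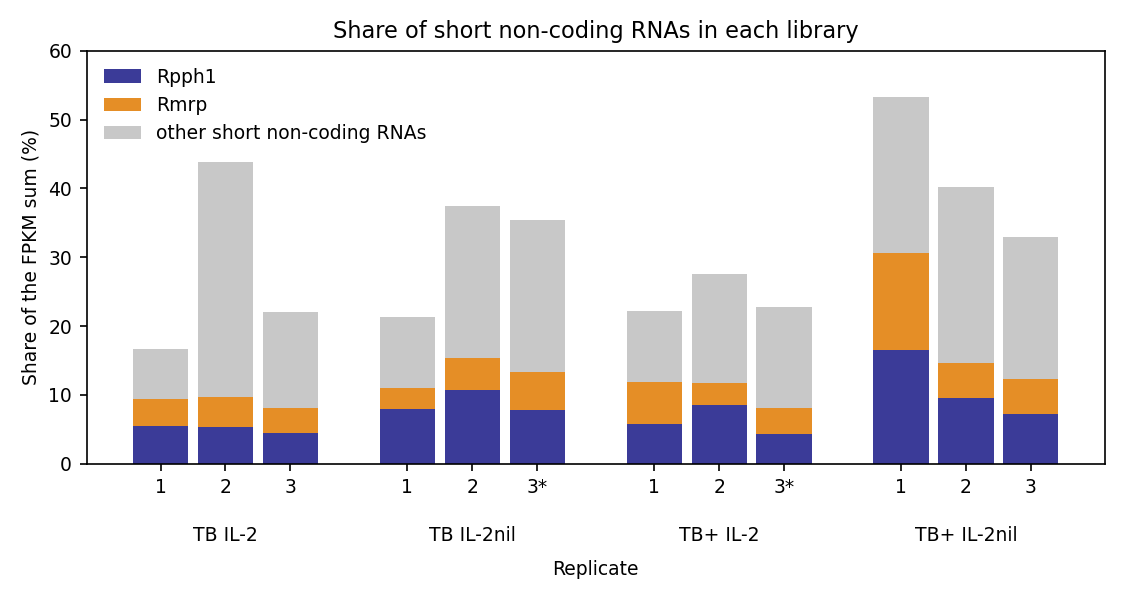
Share of the FPKM sum (%) taken by Rpph1, by Rmrp and by the other short non-coding RNAs in each of the 12 libraries, with replicates in their groups and an asterisk at the 2 libraries placed in the group of the other label. The combined share of Rpph1 and Rmrp is 30.6% in TB+ IL-2nil replicate 1 and 8.13% to 15.3% in the other libraries.

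To compare groups, FPKM were rescaled to TPM (a sum of 1000000 in each library) and then to a common 75th percentile of the 12442 genes over 1 TPM in at least 1 library. On the scale of log2(TPM + 1), TB IL-2 minus TB IL-2nil was -0.70 for Rpph1 and -0.02 for Rmrp. The difference of TB+ IL-2 minus TB IL-2 was 0.30 for Rpph1 and 0.19 for Rmrp, and these went to -0.01 for Rpph1 without TB+ IL-2 replicate 2 and to -0.05 for Rmrp without TB+ IL-2 replicate 1. For TB+ IL-2nil minus TB IL-2nil it was 0.81 and 1.32, and for TB+ IL-2 minus TB+ IL-2nil it was -1.20 and -1.15. On this scale the SD within groups was 0.65 for Rpph1 and 0.76 for Rmrp, so only the last 2 comparisons and Rpph1 in the first held differences above it. The 4 comparisons share groups and are not independent. The median of all genes was itself at -0.13, -0.22, -0.38 and -0.04 in the 4 comparisons, and relative to it Rpph1 differed by -0.57, 0.52, 1.19 and -1.16, and Rmrp by 0.10, 0.40, 1.69 and -1.11. After this scaling the values of Rpph1 in TB IL-2 and TB IL-2nil overlapped. Within replicate numbers, which were taken to pair the libraries, Rpph1 was lower with IL-2 in all 3 pairs, with differences of -0.47, -0.70 and -0.93, whereas Rmrp differed by 0.43, 0.22 and -0.72. The pairs of TB+ IL-2 minus TB+ IL-2nil were at -2.33, -0.37 and -0.91 for Rpph1 and at -2.05, -0.83 and -0.57 for Rmrp. For TB+ IL-2nil minus TB IL-2nil they were at 2.33, 0.08 and 0.01 for Rpph1 and at 3.48, 0.42 and 0.04 for Rmrp, so the first pair, with TB+ IL-2nil replicate 1, held most of it. Those of TB+ IL-2 minus TB IL-2 were at 0.47, 0.41 and 0.03 for Rpph1 and at 1.0, -0.63 and 0.19 for Rmrp. The unpaired values of Rmrp in TB+ IL-2nil (54919, 63199 and 243848 TPM) lay above those in TB IL-2nil (21827, 47091 and 53448 TPM), as did 21.8% of all genes. Grouped by label, the differences of Rpph1 were -0.40, 0.60, 1.11 and -0.90 and those of Rmrp 0.15, 0.37, 1.49 and -0.97. Without both libraries they were -0.72, 0.58, 0.78 and -0.93 for Rpph1 and 0.22, 0.29, 1.56 and -1.05 for Rmrp. Without TB+ IL-2nil replicate 1 the differences of TB+ IL-2 minus TB+ IL-2nil were -0.67 for Rpph1 and -0.47 for Rmrp, and those of TB+ IL-2nil minus TB IL-2nil were 0.28 and 0.63. In plain TPM, without scaling to a common percentile, the 4 differences were -0.78, 0.22, 0.25 and -0.81 for Rpph1. For Rmrp they were -0.11, 0.11, 0.76 and -0.76. In plain TPM without TB+ IL-2nil replicate 1, TB+ IL-2nil minus TB IL-2nil was -0.08 for Rpph1 and 0.27 for Rmrp.

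The share of the pair bears on every other value of a library, since TPM add to a fixed sum. Without Rpph1 and Rmrp in the sum, TPM of all other genes came out 1.09-fold to 1.44-fold higher, with the largest factor in TB+ IL-2nil replicate 1 and 1.09-fold to 1.18-fold in the other 11 libraries. In TB+ IL-2nil replicate 1, Actb, the cytoplasmic actin gene, went from 1731 to 2495 TPM, and the T cell receptor subunit gene Cd3e from 197 to 284 TPM. Upper quartile scaling took the same values to 2981 and 339 TPM. The 75th percentile of the genes kept ran from 20.3 TPM in TB+ IL-2nil replicate 1 to 48.9 TPM in TB IL-2nil replicate 1, a 2.41-fold range. It narrowed to 1.87-fold without the pair and to 1.43-fold without all short non-coding RNAs in the sum. The pair also moved 186 genes across the limit of 1 TPM, with 12442 genes kept with it and 12628 without it.

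Between groups, leaving out the pair moved the median of all genes most in TB+ IL-2 minus TB+ IL-2nil, and without TB+ IL-2nil replicate 1 most in TB IL-2 minus TB IL-2nil (-0.19 to -0.25). For TB+ IL-2 minus TB+ IL-2nil the median log2 difference of all genes was 0.23 in plain TPM, 0.12 with the pair left out of the sum, -0.05 with all short non-coding RNAs left out and -0.04 after upper quartile scaling. Genes called at more than 3-fold and an adjusted P under 0.05 (limma, Benjamini-Hochberg) were 624 higher and 14 lower in plain TPM. They were 521 and 25 without the pair, 413 and 59 without short RNAs, and 400 and 51 after upper quartile scaling. Without TB+ IL-2nil replicate 1, plain TPM gave a median of 0.09 with 378 higher and 21 lower, and TPM without the pair gave 0.06 with 356 and 25. For TB+ IL-2nil minus TB IL-2nil the median was -0.78 in plain TPM, -0.71 without the pair, -0.62 without short RNAs and -0.38 after upper quartile scaling. The genes called higher made up 20.1%, 22.8%, 26.9% and 42.2% of those called in the same order. Without TB+ IL-2nil replicate 1 the median of this comparison was -0.63 in plain TPM and also without the pair, with 26.8% and 26.4% of the called genes higher, so that the pair moved it only with that library.

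Leaving out the pair moved the share of higher calls most in TB IL-2 minus TB IL-2nil. There the median was -0.19 in plain TPM and -0.25 without the pair, and the share of higher among called genes was 58.2% and 52.2%, against 50.6% without short RNAs and 63.2% after upper quartile scaling. For TB+ IL-2 minus TB IL-2 the medians were -0.29 and -0.26, and the share of higher calls was 50.7% and 51.8%, against 43.3% without short RNAs and 55.9% after upper quartile scaling. Upper quartile scaling cancels any factor common to all genes of a library, so a small effect of leaving out the pair was fixed in advance. Only the set of genes kept, 12442 against 12628, and the common scale could differ. The genes called with and without the pair in the sum were 923 against 949, 876 against 914, 2296 against 2387 and 451 against 470 in the 4 comparisons.

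**Figure D3:**
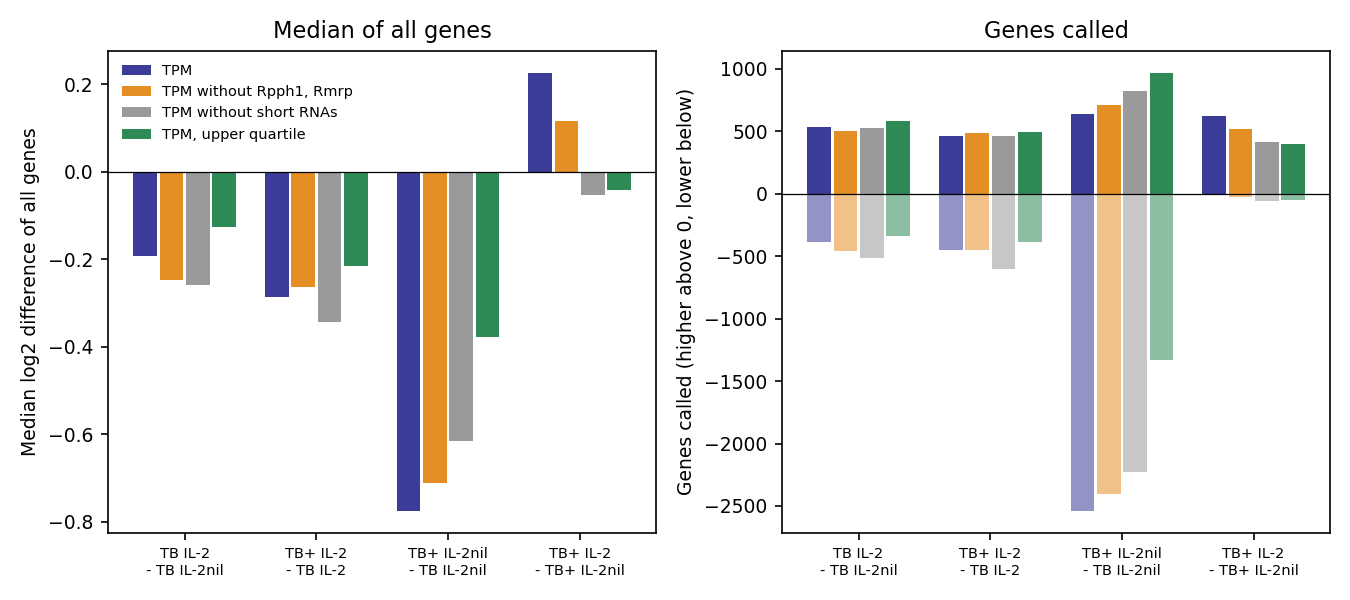
Median log2 difference of all genes (left) and number of genes called at more than 3-fold and an adjusted P under 0.05 (right, higher above 0 and lower below 0) in the 4 comparisons under 4 scalings. For TB+ IL-2 minus TB+ IL-2nil the median goes from 0.23 in plain TPM to 0.12 without Rpph1 and Rmrp and to -0.04 after upper quartile scaling.

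The genes for the proteins of RNase P and RNase MRP were then tested on the upper quartile scale, where 10 of 11 passed the limit of 1 TPM and Rpp25 did not. All counts below use an adjusted P under 0.05 in limma with Benjamini-Hochberg adjustment over all genes. Between TB IL-2 and TB IL-2nil, 4 of the 10 were higher with IL-2 and 0 lower, where 39.6% of all genes passed, 17.3% higher and 22.3% lower. Their median was 0.54 against -0.13 for all genes. Rpp30, a protein shared by both enzymes, stood at 25.0, 27.0 and 27.7 TPM in TB IL-2 and at 4.55, 5.75 and 9.41 TPM in TB IL-2nil. The log2 difference was 1.92 (SE 0.225, adjusted P = 0.000173). Pop1, the largest protein subunit, stood at 6.44 ± 0.973 TPM in TB IL-2nil and 18.2 ± 6.68 TPM in TB IL-2 (SD, n = 3), which is a log2 difference of 1.33 (SE 0.286, adjusted P = 0.00441). Pop4, which contacts the RNA in both enzymes, was higher by 0.88 (adjusted P = 0.00336) and Rpp40 by 0.84 (adjusted P = 0.0228). Rpp40 lay close to the limit of 1 TPM, at 2.61 ± 0.362 TPM in TB IL-2 and 1.03 ± 0.272 TPM in TB IL-2nil (SD, n = 3). Of the 21 alternatives other than grouping by label (other scalings, filters and fits, and libraries left out), the calls of Rpp30 and Pop1 held in 21, that of Pop4 in 19 and that of Rpp40 in 15. In plain TPM the last 2 had an adjusted P of 0.0740 and 0.0815 in limma.

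After PMA/I, 4 of the 10 rose in cells without IL-2 and 0 fell, where 61.2% of all genes passed, 20.1% higher and 41.1% lower, and the medians were 0.41 and -0.38. Pop1 went from 6.44 ± 0.973 TPM to 40.3 ± 12.2 TPM (SD, n = 3), a log2 difference of 2.43 (SE 0.286, adjusted P = 3.62e-05). Rpp38, an RNA-binding subunit, went from 4.36, 4.65 and 7.07 TPM to 21.2, 23.3 and 26.1 TPM, a difference of 1.97 (adjusted P = 0.000155). Every library of TB+ IL-2nil lay above every library of TB IL-2nil for Rpp38, as for 21.8% of all genes. Pop7 rose by 0.87 (adjusted P = 0.00113) and Rpp14 by 0.87 (adjusted P = 0.00746), whereas Rpp30 differed by -0.25 (adjusted P = 0.355). In plain TPM the differences of Pop7 and Rpp14 were 0.33 (adjusted P = 0.30) and 0.36 (adjusted P = 0.349), and these calls were lost, while those of Pop1 and Rpp38 held in all 21 alternatives. In cells with IL-2, 2 of the 10 rose and 2 fell after PMA/I, where 35.1% of all genes passed, 11.8% higher and 23.3% lower, with medians of 0.02 and -0.22. Pop1 and Rpp38 rose, by 0.92 (adjusted P = 0.0277) and 1.05 (adjusted P = 0.0157), and Rpp21 and Rpp25l fell, by 0.69 (adjusted P = 0.0480) and 0.65 (adjusted P = 0.0239). The number of calls, 4 in all, was 1 without TB IL-2 replicate 1, 2 without TB IL-2 replicate 2, 1 without TB IL-2 replicate 3, 0 without TB+ IL-2 replicate 1 (limma, with 4 of 10 at an unadjusted P under 0.05) and 1 without TB+ IL-2 replicate 2. Over all genes 4372 passed with all libraries, and 3222, 3892, 3328, 3150 and 3174 passed in the same order. The call of Rpp21 held in 9 of the 21 alternatives, that of Rpp25l in 14 and those of Pop1 and Rpp38 in 17 each.

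Between TB+ IL-2 and TB+ IL-2nil, 2 of the 10 were higher with IL-2 and 0 lower, where 21.3% of all genes passed, 12.9% higher and 8.40% lower, with medians of -0.17 and -0.04. Rpp30 stood at 19.3, 24.6 and 25.2 TPM in TB+ IL-2 and at 4.13, 5.58 and 5.87 TPM in TB+ IL-2nil, a difference of 1.96 (SE 0.225, adjusted P = 0.000344). It was thus higher with IL-2 in cells with PMA/I as in cells without it. Pop4 differed by 0.69 (adjusted P = 0.0208), a call that held in 17 of the 21 alternatives, while that of Rpp30 held in all. The count was 1 without both libraries that go against their labels (9.71% of all genes), without the library labelled TB IL-2nil replicate 3, without TB+ IL-2nil replicate 1 and without TB+ IL-2nil replicate 2. Among all genes 2644 passed with all libraries, and 1200, 1427, 1544 and 2568 passed in the same order. Pop5 had no adjusted P under 0.05 in any of the 4 comparisons, at 31.5 ± 5.26 TPM to 42.0 ± 7.97 TPM (SD, n = 3). Grouped by label, none of the 10 passed in any of the 4 comparisons (limma), with 1, 1, 2 and 1 at an unadjusted P under 0.05, where 0.121%, 0.498%, 5.38% and 0.217% of all genes passed the adjusted P.

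**Figure D4:**
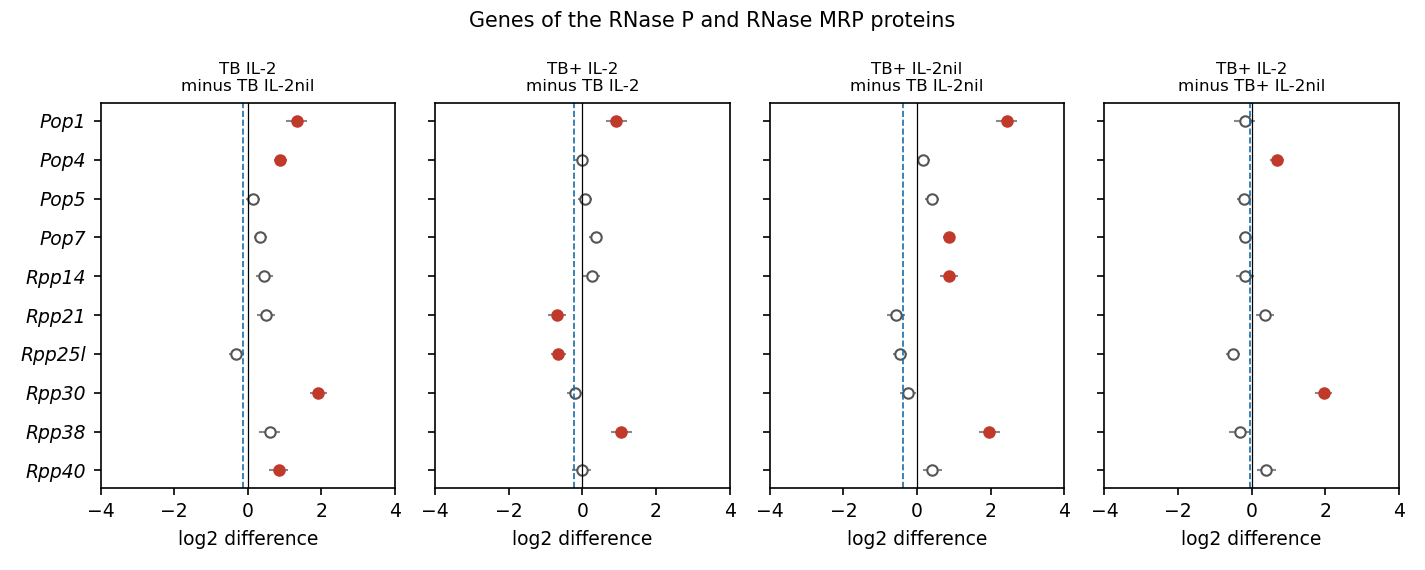
Log2 differences of the 10 genes of RNase P and RNase MRP proteins in the 4 comparisons, with the standard error as a horizontal line. Filled red points have an adjusted P under 0.05, and the dashed line is the median of all genes. Rpp30 lies near 2 in both comparisons of IL-2 with IL-2nil, at 1.92 and 1.96, and at -0.20 and -0.25 in both comparisons of PMA/I.

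Mitochondria of animals use a separate RNase P built of proteins without an RNA. Of its 3 subunits, Trmt10c rose after PMA/I, by 1.39 (adjusted P = 0.000239) without IL-2 and 0.98 (adjusted P = 0.00536) with it. Hsd17b10 and the nuclease subunit, listed as 1110008L16Rik, passed in none of the 4 comparisons, at 37.7 to 45.7 TPM and 4.05 to 5.24 TPM on group average. Genes for later steps of tRNA end processing and splicing moved both ways, with 5 of 8 higher and 3 lower in TB+ IL-2nil than in TB IL-2nil and 4 higher and 3 lower in TB+ IL-2 than in TB IL-2. In TB IL-2 against TB IL-2nil 1 was higher and 1 lower, and in TB+ IL-2 against TB+ IL-2nil 0 of 8 passed (limma, 0 at an unadjusted P under 0.05). Over all genes 20.1% were higher and 41.1% lower in the first of these comparisons, 11.8% and 23.3% in the second, 17.3% and 22.3% in the third and 12.9% and 8.40% in the last. Many of these calls were lost in plain TPM. Of those higher without IL-2 only Elac2 passed, and Trnt1, Ssb, Tsen54 and Clp1 did not (limma, adjusted P = 0.450, 0.0744, 0.249 and 0.853). With IL-2, Elac2, Trnt1, Ssb and Clp1 did not pass as higher (limma, adjusted P = 0.123, 0.179, 0.312 and 0.215). Nor did Tsen15 pass there as lower (limma, adjusted P = 0.140). Elac2, a tRNA 3′ endonuclease, rose by 1.42 (adjusted P = 0.000425) after PMA/I without IL-2, while Elac1, a related enzyme, fell by 1.39 (adjusted P = 0.000109). Ssb, the La protein that binds the 3′ ends of Pol III transcripts, stood at 76.4 ± 0.757 TPM in TB IL-2nil, 131 ± 18.6 TPM in TB IL-2 and 169 ± 19.7 TPM in TB+ IL-2nil (SD, n = 3), and was higher by 0.76 (adjusted P = 0.00365) with IL-2 and by 1.13 (adjusted P = 0.000114) after PMA/I without IL-2, and in plain TPM by 0.68 (adjusted P = 0.0833) and 0.58 (adjusted P = 0.0744), which did not pass. Tsen34, a subunit of the tRNA splicing endonuclease, went in cells without IL-2 from 9.43 ± 2.50 TPM to 1.04 ± 0.0459 TPM (SD, n = 3), a difference of -2.33 (adjusted P = 1.01e-05).

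Of the 12 Pol III subunit genes, 5 rose and 3 fell after PMA/I in cells without IL-2, where 20.1% of all genes rose and 41.1% fell, with a median of 0.31 against -0.38 for all genes. Polr3d, which encodes a subunit of the initiation and termination subcomplex, stood at 5.36, 5.75 and 7.81 TPM in TB IL-2nil and at 55.9, 65.6 and 78.1 TPM in TB+ IL-2nil. The difference of 3.21 (SE 0.251, adjusted P = 3.10e-06) was the largest among the Pol III genes tested. Polr1c, Polr3e, Polr3g and Polr1d also rose, by 1.94, 1.72, 1.52 and 1.05, with adjusted P values of at most 0.000790. Polr1c and Polr1d encode subunits shared with RNA polymerase I. Polr3k, Polr3c and Polr3gl fell, the first from 18.3 ± 0.808 TPM to 6.32 ± 2.60 TPM (SD, n = 3). Polr3g and Polr3gl encode alternative forms of 1 subunit, and Polr3gl differed by -0.81 (adjusted P = 0.0423), a call that held in 7 of the 21 alternatives (-1.30 to -0.33, adjusted P up to 0.374). In plain TPM Polr1d differed by 0.50 (adjusted P = 0.0797), which did not pass. The catalytic subunit gene Polr3a differed by -0.19 (adjusted P = 0.302) and Polr3b by 0.48 (adjusted P = 0.0729). In cells with IL-2, 4 rose and 1 fell after PMA/I, where 11.8% of all genes rose and 23.3% fell, with Polr3d at 1.90 (adjusted P = 0.000272), Polr1c at 1.56 (adjusted P = 0.000683) and Polr3k at -0.93 (adjusted P = 0.0193), the last a call that held in 17 of the 21 alternatives.

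Of the 19 genes tested for factors that load or repress Pol III, 4 rose and 11 fell after PMA/I without IL-2, with a median of -0.64 against -0.38 for all genes, of which 20.1% rose and 41.1% fell. In cells with IL-2, 4 rose and 5 fell, where 11.8% of all genes rose and 23.3% fell. The promoters of Rpph1 and Rmrp are read by the SNAPc complex and by a TFIIIB with Brf2 and Bdp1. Snapc1 and Snapc4 rose after PMA/I without IL-2, by 0.65 (adjusted P = 0.00371) and 1.29 (adjusted P = 0.00211), and Bdp1 by 1.46 (adjusted P = 9.08e-05). In plain TPM Snapc1 differed by 0.13 (adjusted P = 0.705), so this call was lost, and Snapc4 by 0.76 and Bdp1 by 0.92, which passed. Snapc5, Brf2, Snapc2, Snapc3 and Tbp differed by -1.48, -1.02, -0.84, -0.70 and -0.64, with adjusted P values of at most 0.00685, and the calls of Snapc2, Brf2 and Tbp were lost in 1 of the 21 alternatives each. Zfp143, whose protein binds upstream elements of such promoters, fell from 17.8 ± 1.50 TPM to 7.20 ± 0.284 TPM (SD, n = 3). Pou2f1, which encodes the octamer-binding protein Oct-1, differed by -0.40 (adjusted P = 0.165).

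Maf1, which encodes a repressor of Pol III, was the gene of this list with the lowest log2 difference. It stood at 109, 109 and 114 TPM in TB IL-2nil, at 35.3, 53.8 and 55.7 TPM in TB IL-2, at 11.8, 16.6 and 27.8 TPM in TB+ IL-2 and at 7.31, 10.1 and 22.5 TPM in TB+ IL-2nil. The 3 libraries of TB IL-2nil lay above all 9 others, and the share of all genes that did so was not counted. By adjusted P in limma, 22.3% of all genes were lower in TB IL-2 than in TB IL-2nil, and 41.1% were lower in TB+ IL-2nil than in TB IL-2nil. The differences were -1.21 (SE 0.377, adjusted P = 0.0259) for TB IL-2 minus TB IL-2nil, -1.37 (SE 0.377, adjusted P = 0.0162) for TB+ IL-2 minus TB IL-2 and -3.11 (SE 0.377, adjusted P = 4.48e-05) for TB+ IL-2nil minus TB IL-2nil. For TB+ IL-2 minus TB+ IL-2nil it was 0.53 (adjusted P = 0.345), which did not pass. The first 2 of these calls held in 15 and 16 of the 21 alternatives and the third in all.

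Between TB IL-2 and TB IL-2nil, 6 of the 31 Pol III genes passed, 2 higher and 4 lower with IL-2, and with a block for the replicate number 10 passed, against 39.6% and 50.8% of all genes. Gtf3c5, a TFIIIC subunit used at tRNA genes, was higher by 1.03 (adjusted P = 0.00190). The count of 6 fell to 2 without TB IL-2 replicate 2, TB IL-2 replicate 3, TB IL-2nil replicate 1, TB IL-2nil replicate 2 or the library labelled TB+ IL-2 replicate 3, and to 3 without the library labelled TB IL-2nil replicate 3. Over all genes 4929 passed with all libraries, and 3636, 3695, 4017, 4013, 4344 and 4719 passed in the same order. Between TB+ IL-2 and TB+ IL-2nil, 4 of the 31 were higher with IL-2 and 0 lower, namely Polr3k, Snapc5, Gtf3a and Snapc2, at 0.98, 0.82, 0.69 and 0.65, calls that held in 16, 11, 17 and 18 of the 21 alternatives. With the block 9 passed, 5 higher and 4 lower, where 21.3% of all genes passed without the block and 33.6% with it. The count of 4 fell to 0 without both libraries that go against their labels (limma, with 6 at an unadjusted P under 0.05) and without the library labelled TB IL-2nil replicate 3 (5 at an unadjusted P under 0.05), to 1 without TB+ IL-2nil replicate 1 and to 2 without TB+ IL-2 replicate 2. Among all genes 2644 passed with all libraries, and 1200, 1427, 1544 and 1785 passed in the same order. After PMA/I with IL-2, 14 of 31 passed, where 35.1% of all genes did, and the count was 9, 8 and 7 without TB IL-2 replicate 1, TB IL-2 replicate 3 and TB+ IL-2 replicate 1. The genes that passed over all genes went from 4372 to 3222, 3328 and 3150 in the same order. Grouped by label, 0, 0, 2 and 0 of the 31 passed in the 4 comparisons, with 1, 3, 18 and 5 at an unadjusted P under 0.05.

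**Figure D5:**
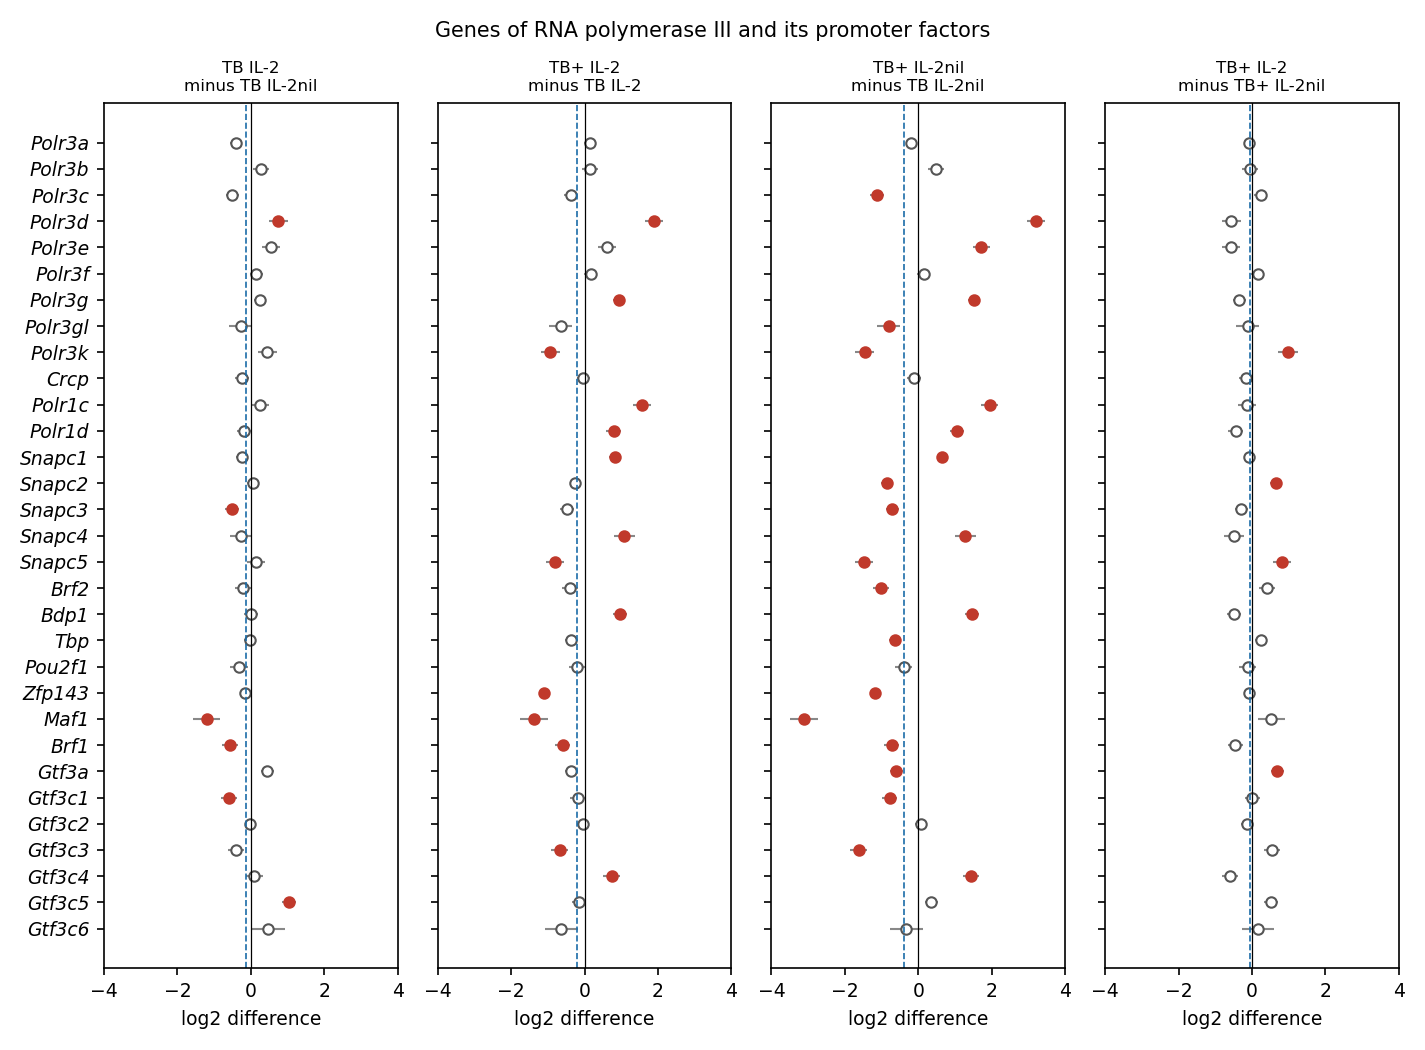
Log2 differences of 12 Pol III subunit genes and 19 genes of its promoter factors in the 4 comparisons, with the standard error as a horizontal line. Filled red points have an adjusted P under 0.05, and the dashed line is the median of all genes. For TB+ IL-2nil minus TB IL-2nil, Polr3d is at 3.21 and Maf1 at -3.11.

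The neighbours of both loci gave their own values. Parp2 stood at 30.3 ± 5.58 TPM in TB IL-2, 21.5 ± 3.28 TPM in TB IL-2nil, 19.8 ± 6.44 TPM in TB+ IL-2 and 12.2 ± 2.46 TPM in TB+ IL-2nil (SD, n = 3), and fell by 0.77 (adjusted P = 0.0144) after PMA/I without IL-2. Ccdc107 was higher with IL-2, by 0.82 (adjusted P = 0.0264) without PMA/I and by 1.15 (adjusted P = 0.0107) with it, and fell by 0.64 (adjusted P = 0.0486) after PMA/I without IL-2. The fall of Parp2 held in 17 of the 21 alternatives and that of Ccdc107 in 7 (-1.15 to -0.16, adjusted P up to 0.629), and both differences of Ccdc107 with IL-2 in 12 and 20. For TB+ IL-2nil minus TB IL-2nil the log2 differences of Rpph1 and Rmrp were above 0 and those of Parp2 and Ccdc107 below it. The median of all genes was also below 0 there, at -0.38. The difference of Rpph1 lay mostly in the pair with TB+ IL-2nil replicate 1, with pairs at 2.33, 0.08 and 0.01.

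Of all genes kept, those most like Rpph1 over the 12 libraries by Pearson correlation of log2(TPM + 1) were Snord17 (0.96), Snora23 (0.94), Snora81 (0.93), Dnttip1 (0.89) and Pak2 (0.89). Without TB+ IL-2nil replicate 1 these correlations were 0.94, 0.88, 0.90, 0.77 and 0.73. The first 3 are small nucleolar RNAs, with median levels of 980.1, 569.9 and 271 FPKM against 21061 FPKM for Rpph1. For Rmrp they were Snora23 (0.90), Snord17 (0.88), Snora74a (0.88), Gm19619 (0.87) and Fnbp1 (0.86), and 0.80, 0.78, 0.86, 0.41 and 0.65 without that library. Snord17 and Snora23 were among the 5 for both RNAs, and Gm19619, at no more than 0.712 FPKM in any library, had the lowest of these values without the highest library. These points share libraries, depth and scaling, and the correlations carry no test.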

How the data were processed

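RNA-Seq of 12 libraries of rRNA-depleted RNA was processed by the authors with Trimmomatic 0.32, HISAT2 2.1.0 (mm9) and StringTie 1.3.3 on RefSeq models. The deposited values are FPKM for 24439 genes, with no read counts, so counting error is unknown. The methods name TPM, whereas the files hold sums of 193815 to 420487. Here FPKM were turned into TPM, a gene had to exceed 1 TPM in 1 library or more, and libraries were scaled to the mean 75th percentile. Log2(TPM + 1), which understates changes of low genes, was fitted in limma 3.58.1 (R 4.3.3) over 4 groups, with 8 residual degrees of freedom. Named genes were Rpph1, Rmrp, Il2, list genes with an adjusted P under 0.05 or at the extremes of a list, and the 5 genes most correlated with each RNA. The script was tested on simulated data. A gene in each of 2 lists is not reported here and was left out of the counts. The members and the gene lists were chosen with earlier results of these data known.

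The study's table of differentially expressed genes was used only to place 2 libraries. For this, TPM were quantile normalized, so that each library had the same set of values by rank. The columns of that table met 97.1% to 99.9% of these values of 1 library within 1% and at most 2.44% of the next. The table thus lay close to quantile-normalized TPM, whereas upper quartile scaling, which the methods name, was the main setting here. Libraries with the same replicate number then deviated together from their group means, with all 18 correlations over 0.1 (0.101 to 0.531), so the numbers were taken to pair the samples. Alternatives were grouping by label, leaving out libraries, other scalings, filters, pseudocounts, a replicate block and limma-trend. Sequences were read from mm9 at the GENCODE M1 coordinates, and promoters from RefSeq. Python 3.11.15 with numpy 2.4.6 and pandas 2.3.3 was used for the rest.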

Additional observations from a re-analysis of the deposited data

How the results depend on the processing

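Of 84 calls on list genes, 34 held under each of 21 alternatives other than grouping by label, among them Rpp30 in both comparisons of IL-2, and all 84 under limma-trend and the replicate block. By label 2 of the 84 were left, and Polr3d in TB IL-2 minus TB IL-2nil turned to -0.13. Clp1 in TB+ IL-2nil minus TB IL-2nil turned to -0.062 in plain TPM. The causes were not tested.

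Values are given in the order TB IL-2 minus TB IL-2nil, TB+ IL-2 minus TB IL-2, TB+ IL-2nil minus TB IL-2nil and TB+ IL-2 minus TB+ IL-2nil. Genes called over all genes were 923, 876, 2296 and 451, and by label 12, 44, 255 and 15. With a pseudocount of 0.1 the last 3 were 1470, 3472 and 691. RNase P and MRP proteins called were 4, 4, 4 and 2, and by label 0 in each. In plain TPM, and in TPM without both RNAs, the first 2 counts were 2 and 2. The last was 1 without both libraries that go against their labels. Leaving out 1 library gave 3 to 4, 0 to 4, 4 to 5 and 1 to 2. Pol III genes called were 6, 14, 23 and 4, and by label 0, 0, 2 and 0. The first was 3 without both libraries, 1 in plain TPM, 2 in TPM without both RNAs, and 3 with a pseudocount of 0.1 or with no filter. The second was 7 in plain TPM. The last was 0 without both libraries and 2 after quantile normalization. Leaving out 1 library gave 2 to 5, 7 to 14, 21 to 24 and 0 to 6. With the replicate block the first and last counts of Pol III genes were 10 and 9, and the block changed no other of these counts by over 1.5 times.

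With the other short non-coding RNAs left out of the sum, the share of Rpph1 and Rmrp was 11.4% in TB IL-2 and 16.3% in TB IL-2nil. Quantile normalization, which gives the top ranks of all libraries the same values, took Rpph1 to 0 and -0.18 and Rmrp to 0.21 and 0.18 in the last 2 comparisons. Leaving out 1 library gave group shares of 8.78% to 9.53% in TB IL-2, 12.1% to 14.3% in TB IL-2nil, 9.95% to 11.8% in TB+ IL-2 and 13.5% to 22.6% in TB+ IL-2nil. It gave log2 differences of -0.95 to -0.45, -0.01 to 0.58, 0.28 to 1.23 and -1.63 to -0.67 for Rpph1, and of -0.42 to 0.22, -0.05 to 0.46, 0.63 to 1.71 and -1.54 to -0.47 for Rmrp. The depth of a library is known only relative to the others, so no detection limit is given.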
